A study of Mus musculus with 23 samples.

Results

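The transcripts described here encode ligands and inhibitors of the transforming growth factor beta superfamily that act on muscle. They are Tgfb1, Tgfb2, Tgfb3, Inhba, Bmp4 and Mstn, which encode ligands or ligand subunits, Fst and Grem1, which encode secreted antagonists, and Smad6 and Smad7, which encode inhibitory Smads. These 10 genes were taken by symbol from the 32793 genes of the deposited tables. All 10 were present, and 9 of them passed the filter on low counts, the exception being Mstn. RNA had been sequenced from C2C12, a mouse myoblast line that fuses into myotubes when serum is lowered. The study compared control cells (labelled WT) with cells carrying a knockout of Runx1 (labelled KO, Runx1KO), Runx1 being a DNA-binding transcription factor. Both genotypes were harvested in growth medium containing 20% fetal bovine serum, called day 0, and 1, 3 or 6 days after the switch to 2% horse serum. There were 8 groups of 3 libraries, apart from the day 0 WT group, which had 2. The titles give the last time point as day 6 and the series text as 5 days, and the titles were followed. The labels used here do not say how the knockout was made, which part of Runx1 it altered, whether the cells were 1 clone, or whether the libraries of a group came from separate cultures. P-values therefore measure only the spread between these libraries, which may be technical.

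As background, the ligands of this family are secreted dimers that bind pairs of type I and type II serine/threonine kinase receptors. Tgf-beta, activin and myostatin receptors phosphorylate Smad2 and Smad3, and Bmp receptors phosphorylate Smad1, Smad5 and Smad9; each set joins Smad4 and enters the nucleus. Follistatin binds activins and myostatin, gremlin binds Bmp ligands, and Smad6 and Smad7 block receptor signalling inside the cell and are themselves induced by it. In muscle, Tgf-beta and myostatin are known to restrain myoblast differentiation and growth, and Bmp ligands can divert C2C12 cells towards an osteoblast programme.

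Depth was nearly equal, with libraries of 22197606 to 23684077 estimated counts. Levels are given as CPM (counts scaled to a TMM-corrected library size of 1000000) within a gene, and as TPM, which is scaled by transcript length, where different genes are compared. Runx1 itself had 84.0 and 83.9 CPM in the WT libraries of day 0 and 118, 119 and 122 CPM in those labelled KO, and it was also higher in the KO-labelled libraries on the other 3 days (log2 fold changes of 0.35, 0.54 and 1.02 on days 1, 3 and 6). Gene-level counts cannot show whether a transcript carries a disrupting change, so Runx1 mRNA did not check the genotype labels. The libraries are called "KO-labelled" for that reason. KO-labelled replicate 2 of day 1 stood apart: over genes, its deviation from the group mean correlated with transcript GC content at r = -0.63, against 0.44 and 0.43 in the other 2 libraries of its group and -0.22 to 0.22 in all other groups. Markers of myoblasts were present in every group, at levels that were not equal between the genotypes. Des had group means of 1010, 1540, 1510 and 1570 CPM in WT on days 0, 1, 3 and 6 and 1610, 1790, 2220 and 2800 CPM with the KO label. Myf5 had 35.1, 52.2, 42.9 and 33.8 CPM in WT and 13.0, 28.1, 40.0 and 26.7 CPM with the KO label. Myod1 ran from 183 to 411 CPM in WT and from 213 to 500 CPM with the KO label, and Cdh15 from 130 to 258 and from 216 to 370 CPM. Chrng, a fetal acetylcholine receptor subunit, had 4.87, 65.3, 118 and 161 CPM in WT and 5.03, 38.9, 131 and 325 CPM with the KO label, so that the KO-labelled mean was the lower one on day 1 and the higher one on day 6. The part of these differences in the results below was not tested. Of 16 markers of bone, fat, blood and endothelium, 5 were at 0 in every library (Adipoq, Cidec, Cfd, Adgre1 and Emcn), the highest group mean was 2.58 CPM (Dmp1, a bone gene), and their summed level per library was 0.278 to 3.53 CPM in the KO-labelled libraries and 1.1 to 5.46 CPM in WT.

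Among the 9 tested genes, Bmp4 and Grem1 were lower in the KO-labelled libraries on all 4 days, and Bmp4 showed the largest difference on each. Tgfb2 was higher in them on days 0 and 1, a call that no alternative ended. Fst was also called higher on days 0 and 1, but these calls were lost in 3 of 16 and 4 of 17 alternatives and the day 1 groups overlapped. Inhba, Smad6 and Smad7 were lower in them on day 3. In growth medium, 2 of the 9 genes were called higher and 2 lower, where 7.36% of all 14187 tested genes were called higher and 10.1% lower (edgeR quasi-likelihood test, Benjamini-Hochberg adjusted p under 0.05). On day 1, 2 genes were called higher, against 22.9% of all tested genes, and 5 lower, against 19.2%. On day 3 no gene was called higher, against 24.0%, and 6 were called lower, against 19.2%; the 3 others also missed an unadjusted p of 0.05, and DESeq2 also called 6. On day 6 no gene was called higher, against 22.0%, and 4 were called lower, against 20.8%, with 4 under an unadjusted p of 0.05 and 4 called by DESeq2. Limma on log2(TPM + 1) called 5 on that day. The median log2 fold change of the 9 genes was -0.11, -0.36, -0.63 and -0.13 on days 0, 1, 3 and 6, beside medians over all tested genes of 0.00, 0.03, 0.04 and 0.00. In bulk RNA, fewer cells expressing a gene and less RNA per cell cannot be told apart.

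**Figure D1:**
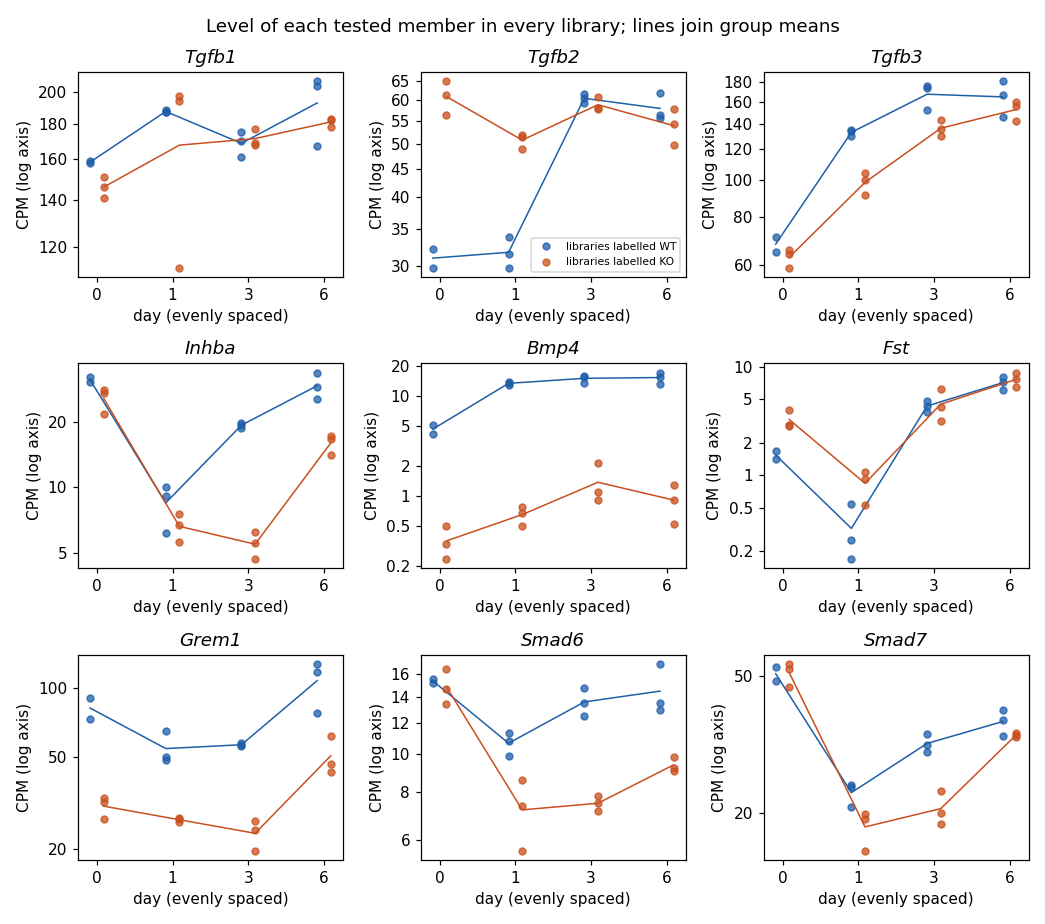
Level of each of the 9 tested genes in every library, in CPM on log axes, against day; points are libraries (blue, labelled WT; orange, KO-labelled) and lines join group means. Bmp4 and Grem1 points of the 2 genotypes do not overlap on any day, while Tgfb2 points are separate on days 0 and 1 and overlap on days 3 and 6.

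**Figure D2:**
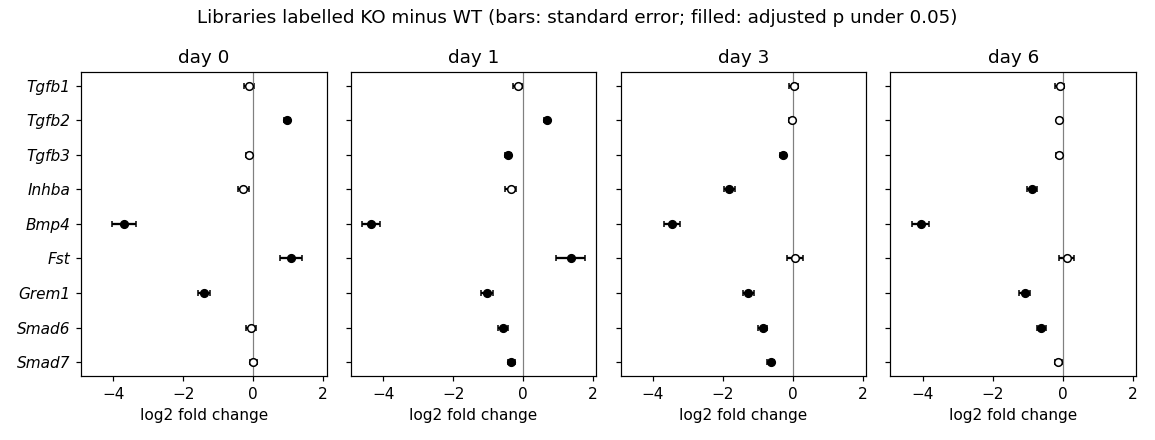
Log2 fold change of the KO-labelled libraries against WT for each tested gene on each day, with bars of 1 standard error and filled points where the adjusted p was under 0.05. Bmp4 lies between -4.36 and -3.45 on all days.

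Tgfb1, the founding member of the family, was the most abundant of the 10 transcripts in every group, with group means of 108 to 168 TPM. Tgfb1 had 159 and 158 CPM in the WT libraries of day 0, 187, 188 and 187 on day 1, 175, 161 and 170 on day 3, and 204, 207 and 167 on day 6. KO-labelled libraries had 151, 146 and 141 CPM on day 0, 194, 112 and 197 on day 1, 177, 169 and 168 on day 3, and 178, 182 and 183 on day 6. The 112 CPM belong to the library of day 1 that stood apart. The genotypes overlapped on days 1, 3 and 6, and no genotype difference passed the test on any day. From day 0 to day 6, Tgfb1 rose in the KO-labelled libraries by a log2 fold change of 0.31 ± 0.13 (SE; adjusted p = 0.0351), but leaving out 1 library ended this call in 4 fits, and it turned to -0.13 with an offset for GC content. The WT change over the same days was 0.28 ± 0.14 and did not pass (adjusted p = 0.0915), although it passed in 7 of 16 alternatives (range 0.00474 to 1), and the test of a difference between the 2 changes did not pass (0.03 ± 0.19; adjusted p = 0.968). Without KO-labelled replicate 2 of day 1, Tgfb1 was higher on day 1 than on day 0 by 0.43 (adjusted p = 1.27e-05 in edgeR, over a range of 1.27e-05 to 0.711 in the alternatives), a difference that did not pass in edgeR with it (0.20). With that library kept, the difference passed in limma on log2(TPM + 1) (0.31, adjusted p = 0.0331) and on log2(TPM + 0.1) (0.31, adjusted p = 0.0323).

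Tgfb2, a second Tgf-beta ligand, was higher in the KO-labelled libraries in growth medium and on day 1, and the WT libraries reached overlapping levels by day 3. In WT it had 29.8 and 32.2 CPM on day 0, 31.6, 33.9 and 29.8 on day 1, 59.3, 61.6 and 60.6 on day 3, and 56.4, 55.7 and 61.9 on day 6. The KO-labelled values of Tgfb2 were 56.4, 61.4 and 65.0 CPM on day 0, 51.5, 48.9 and 52.0 on day 1, 58.1, 60.8 and 57.8 on day 3, and 54.3, 57.9 and 49.7 on day 6. Every KO-labelled library was thus above every WT library on days 0 and 1, and the ranges overlapped on days 3 and 6. The genotype difference was a log2 fold change of 0.98 ± 0.09 on day 0 (1.97-fold; adjusted p = 1.18e-08) and 0.68 ± 0.08 on day 1 (1.6-fold; adjusted p = 2.12e-07). In WT, Tgfb2 rose between day 0 and day 3 by 0.97 ± 0.09 (adjusted p = 1.97e-09) and stood 0.90 ± 0.09 above day 0 on day 6 (adjusted p = 3.63e-09). In the KO-labelled libraries it fell by 0.26 ± 0.07 from day 0 to day 1 (adjusted p = 0.0048) and fell by 0.17 ± 0.07 to day 6 (adjusted p = 0.0394). The last call was lost in 12 of 17 alternatives and the one before it in 4 of 17.

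Tgfb3 rose during differentiation in both genotypes. It had 70.9 and 64.8 CPM in WT on day 0, 134, 135 and 130 on day 1, 176, 152 and 174 on day 3, and 146, 181 and 167 on day 6. Counterparts with the KO label had 65.3, 63.9 and 58.9 CPM on day 0, 99.8, 91.4 and 104 on day 1, 143, 130 and 136 on day 3, and 142, 160 and 156 on day 6. On days 1 and 3 every KO-labelled library was below every WT library; on days 0 and 6 the ranges overlapped. The difference was -0.44 ± 0.08 on day 1 (adjusted p = 1.87e-04) and -0.30 ± 0.08 on day 3 (adjusted p = 0.00547). On day 6 it did not pass (-0.11 ± 0.08, adjusted p = 0.296), but it passed in 4 of 17 alternatives (range 0.0269 to 0.774). The rise over day 0 came to 0.97, 1.30 and 1.28 on days 1, 3 and 6 in WT and to 0.65, 1.12 and 1.28 in the KO-labelled libraries, with adjusted p from 7.6e-07 down to 3.25e-12.

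On the TPM scale, which allows the 3 Tgf-beta ligands to be added, Tgfb1 made up 74.1% of their sum in WT on day 0 and 66.1%, 56.5% and 60.2% on days 1, 3 and 6. Tgfb3 took 19.6%, 29.0%, 34.7% and 31.9%, and Tgfb2 6.31%, 4.88%, 8.85% and 7.94%. The Tgfb2 share in the KO-labelled libraries was 12.6% on day 0 and 9.07%, 9.12% and 7.86% afterwards. The day 0 shares of Tgfb2 did not overlap, at 6.0% to 6.62% in WT and 11.4% to 13.8% in the KO-labelled libraries.

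Inhba encodes the subunit that dimerises to activin A. Its mRNA fell on day 1 in both genotypes, and by day 3 it had risen again in WT but not in the KO-labelled libraries. In WT it had 32.3 and 30.6 CPM on day 0, 9.18, 10.1 and 6.19 on day 1, 19.9, 18.9 and 19.4 on day 3, and 29.1, 25.5 and 33.9 on day 6. KO-labelled Inhba values were 21.8, 27.4 and 28.2 CPM on day 0, 5.59, 7.54 and 6.71 on day 1, 6.2, 5.54 and 4.67 on day 3, and 16.7, 17.3 and 14.2 on day 6. On day 3 the highest KO-labelled library was far below the lowest WT library, and the groups were also separate on days 0 and 6, whereas on day 1 they overlapped. The day 0 difference of the means, 25.8 against 31.4 CPM, did not pass the test. The day 3 difference was -1.83 ± 0.16 (3.55-fold lower; adjusted p = 3.13e-09) and the day 6 difference -0.88 ± 0.14 (1.83-fold lower; adjusted p = 2.53e-05). On day 1 the difference of -0.36 did not pass (adjusted p = 0.0839). It passed without KO-labelled replicate 2 (-0.48, adjusted p = 0.0428) and without replicate 3 of WT (-0.54, adjusted p = 0.00867). With an offset for GC content it also passed, alone (-0.40, adjusted p = 0.0387) or with a replicate block (-0.40, adjusted p = 0.0494). The adjusted p ran from 0.00867 to 0.365 in the alternatives. Relative to day 0, Inhba fell by 1.89 ± 0.16 on day 1 and by 0.70 ± 0.16 (adjusted p = 0.000532) on day 3 in WT. The WT value on day 6 did not pass (-0.09 ± 0.15, adjusted p = 0.613). In the KO-labelled libraries Inhba fell by 1.96 ± 0.16, 2.24 ± 0.16 and 0.68 ± 0.14 on days 1, 3 and 6 (adjusted p = 3.92e-10, 3.01e-11 and 0.000195). The difference between the 2 day 6 changes did not pass (-0.59 ± 0.21, adjusted p = 0.0696), although it passed in 7 of 22 alternatives.

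Bmp4, a ligand that signals through Smad1, Smad5 and Smad9, was lower in every KO-labelled library and rose with differentiation in WT. In WT it had 5.15 and 4.12 CPM on day 0, 13.4, 13.8 and 12.7 on day 1, 15.4, 13.5 and 15.9 on day 3, and 13.2, 17.0 and 15.4 on day 6. The KO-labelled values were 0.499, 0.327 and 0.232 CPM on day 0, 0.767, 0.502 and 0.671 on day 1, 0.905, 2.1 and 1.08 on day 3, and 1.28, 0.516 and 0.915 on day 6. No KO-labelled library reached the lowest WT library of any day. These levels rest on 5 to 47 counts per KO-labelled library and 89 to 383 per WT library, so the values of the KO-labelled libraries are the less precise. The log2 fold change was -3.69 ± 0.33 on day 0 (12.9-fold lower; adjusted p = 1.34e-08), -4.36 ± 0.25 on day 1 (20.5-fold; adjusted p = 4.67e-12), -3.45 ± 0.23 on day 3 (10.9-fold; adjusted p = 2.73e-11) and -4.07 ± 0.24 on day 6 (16.8-fold; adjusted p = 2.35e-12). Bmp4 rose over day 0 in WT by 1.52 ± 0.22, 1.69 ± 0.22 and 1.71 ± 0.22 on days 1, 3 and 6. From its lower base it also rose in the KO-labelled libraries, by 1.93 ± 0.37 on day 3 (adjusted p = 0.000105) and 1.34 ± 0.40 on day 6 (adjusted p = 0.00472).

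Mstn encodes myostatin, a secreted inhibitor of muscle growth. It had 0 counts in all 12 KO-labelled libraries and in the WT libraries of days 1 and 3. The WT libraries held 2 and 2 counts on day 0 and 1, 5 and 0 counts on day 6. A floor of 3 counts, the upper limit that a count of 0 allows, corresponds to 0.126 to 0.14 CPM at these depths and covers counting error only. All but 1 library were under that floor, so no genotype difference in Mstn was detectable at this depth.

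Of the secreted antagonists, follistatin mRNA (Fst) fell on day 1 and was above its day 0 level on day 6 in both genotypes. Fst had 1.41 and 1.67 CPM in WT on day 0, 0.17, 0.551 and 0.256 on day 1, 4.83, 3.86 and 4.38 on day 3, and 8.04, 6.16 and 7.21 on day 6. KO-labelled libraries held 2.86, 2.94 and 3.99 CPM on day 0, 1.08, 0.921 and 0.537 on day 1, 6.2, 3.17 and 4.22 on day 3, and 6.48, 8.82 and 7.71 on day 6. The genotypes were separate on day 0 and overlapped on the other 3 days. Fst was higher in the KO-labelled libraries on day 0 by 1.08 ± 0.31 (2.12-fold; adjusted p = 0.0151) and on day 1 by 1.36 ± 0.41 (2.57-fold; adjusted p = 0.0105), the latter against WT libraries of 4, 13 and 6 counts. The day 0 call was lost without KO-labelled replicate 3, replicate 1 of WT or replicate 2 of WT (adjusted p = 0.0732, 0.154 and 0.0627), and the day 1 call without replicate 1 of either genotype (adjusted p = 0.0501 and 0.0658), with limma on log2(TPM + 1) (0.36; adjusted p = 0.0652) or with only the groups compared (adjusted p = 0.0628), over ranges of 0.00313 to 0.154 and 0.00332 to 0.0658. Against day 0, Fst fell by 2.22 ± 0.41 on day 1 in WT and stood 1.50 ± 0.30 and 2.21 ± 0.30 higher on days 3 and 6. In the KO-labelled libraries it fell by 1.94 ± 0.29 on day 1 and was 1.23 ± 0.23 higher on day 6 (adjusted p = 5.5e-05).

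Grem1 encodes gremlin 1, which binds Bmp2, Bmp4 and Bmp7. It had 90.2 and 73.5 CPM in WT on day 0, 65.0, 50.1 and 48.4 on day 1, 56.3, 56.0 and 57.6 on day 3, and 127, 78.1 and 118 on day 6. The KO-labelled Grem1 values were 31.8, 26.8 and 33.2 CPM on day 0, 26.0, 26.9 and 27.2 on day 1, 19.6, 24.0 and 26.3 on day 3, and 62.1, 46.7 and 43.3 on day 6. On every day each KO-labelled library lay below each WT library. The difference was -1.42 ± 0.17 on day 0 (2.67-fold lower; adjusted p = 1.69e-06), -1.03 ± 0.16 on day 1 (2.04-fold; adjusted p = 1.93e-05), -1.28 ± 0.16 on day 3 (2.43-fold; adjusted p = 8.95e-07) and -1.09 ± 0.16 on day 6 (2.12-fold; adjusted p = 4.38e-06). Grem1 rose in the KO-labelled libraries by 0.73 ± 0.16 from day 0 to day 6 (adjusted p = 0.000301). Its smaller time changes were less stable. The fall in WT on day 1 (-0.59; adjusted p = 0.00552) and on day 3 (-0.53; adjusted p = 0.0102) was lost without replicate 1 of WT on day 0 (adjusted p = 0.152 and 0.203), over ranges of 0.000208 to 0.247 and 7.92e-06 to 0.203. The WT rise on day 6 (0.40; adjusted p = 0.0482) came with overlapping groups and was lost in 4 of 16 alternatives, and the fall in the KO-labelled libraries on day 3 (-0.39; adjusted p = 0.0447) in 7 of 17.

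Bmp4 and Grem1 were the 2 genes lower in the KO-labelled libraries on all 4 days, and the 250 bases before their RefSeq start sites are shown for that reason. Both lie on the minus strand of GRCm38.p6, Bmp4 at chr14:46390670-46390919 and Grem1 at chr2:113758649-113758898, and both are printed 5′ to 3′ on the gene's strand. Capitals mark matches, on either strand, to any of 4 motifs: the Runx core TGTGGT, the GC box GGCGCC of Bmp-responsive elements, the Smad box CAGAC and the E-box CAGCTG.
Bmp4: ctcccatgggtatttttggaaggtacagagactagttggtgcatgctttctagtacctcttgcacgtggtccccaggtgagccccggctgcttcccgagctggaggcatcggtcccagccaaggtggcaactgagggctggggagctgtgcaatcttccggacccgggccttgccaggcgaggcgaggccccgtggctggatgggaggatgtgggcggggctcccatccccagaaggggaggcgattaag
Grem1: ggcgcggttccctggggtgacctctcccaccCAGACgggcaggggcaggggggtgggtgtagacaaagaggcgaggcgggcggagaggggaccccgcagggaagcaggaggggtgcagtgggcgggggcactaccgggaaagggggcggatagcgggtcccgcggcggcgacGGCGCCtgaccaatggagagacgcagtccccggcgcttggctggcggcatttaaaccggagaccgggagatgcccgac
The Bmp4 window had 63.2% GC and no match. The Grem1 window had 72.0% GC, a Smad box at -219 and a GC box at -78, counted from the start site with -1 as the base before it; the 2 matches do not overlap. Among 32851 RefSeq windows of 250 bases, TGTGGT was found in 14.0%, GGCGCC in 9.59%, CAGAC in 42.2% and CAGCTG in 13.0%. RefSeq windows matched 7 of the 10 genes, and TGTGGT was in none of these 7. A match is a description of the letters in this window and not a binding site.

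Because TPM is scaled by length, the ratio of antagonist to ligand mRNA could be set beside the single levels. The Grem1 to Bmp4 ratio was 25.1 ± 0.638 (SD, n = 2) in WT on day 0 and 6.4 ± 1.26, 5.28 ± 0.31 and 10.7 ± 3.38 (n = 3) on days 1, 3 and 6. The KO-labelled libraries had ratios of 133 ± 61.5, 58.9 ± 14.0, 28.9 ± 10.8 and 87.7 ± 25.7 (n = 3). Both transcripts were lower in these libraries, yet the ratio was higher on every day without overlap, since Bmp4 differed by the larger fold. The Inhba to Fst ratio was 35.5 ± 5.72 (n = 2), 54.1 ± 36.7, 8.03 ± 0.503 and 7.36 ± 1.07 (n = 3) in WT on days 0, 1, 3 and 6. On day 1 the WT libraries had ratios of 96.3, 30.4 and 35.6, and the mean without replicate 1, where Fst rested on 4 counts, was 33.0. The ratio was 14.1 ± 1.82, 14.3 ± 5.67, 2.26 ± 0.647 and 3.87 ± 0.793 (n = 3) in the KO-labelled libraries, lower on each day without overlap. These ratios are descriptions of mRNA and carry no test.

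**Figure D3:**
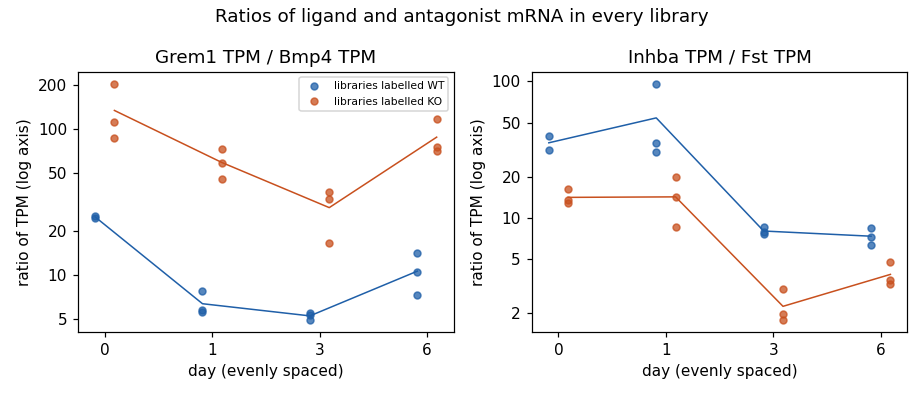
Ratio of Grem1 to Bmp4 TPM (left) and of Inhba to Fst TPM (right) in every library, on log axes, against day; points are libraries and lines join group means. The Grem1 to Bmp4 ratio of the KO-labelled libraries lies above that of WT on each day, and the Inhba to Fst ratio below it.

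No genotype difference of the inhibitory Smads passed the threshold in growth medium; Smad6 was lower in the KO-labelled libraries on days 1, 3 and 6 and Smad7 on days 1 and 3. Smad6, which acts mainly on Bmp receptors, had 15.6 and 15.2 CPM in WT on day 0, 11.3, 10.8 and 9.87 on day 1, 13.5, 12.5 and 14.8 on day 3, and 13.5, 17.0 and 13.0 on day 6. With the KO label, Smad6 had 13.4, 14.7 and 16.5 CPM on day 0, 8.57, 5.65 and 7.34 on day 1, 7.47, 7.82 and 7.13 on day 3, and 9.22, 9.85 and 9.06 on day 6. The groups overlapped on day 0 and were separate on days 1, 3 and 6. The differences were -0.57 ± 0.13 (adjusted p = 0.00136), -0.86 ± 0.13 (adjusted p = 1.16e-05) and -0.62 ± 0.13 (adjusted p = 3.63e-04) on days 1, 3 and 6. An offset for GC content together with the replicate block left the day 1 call in place but brought its value to -0.30 (adjusted p = 0.0338; range over its alternatives 0.00013 to 0.0338). Against day 0, Smad6 fell in WT on day 1 (-0.53; adjusted p = 0.00259), whereas its day 3 and day 6 values (-0.18 and -0.09) did not pass. With an offset for GC content both passed (-0.47 and -0.44), and in 4 other alternatives the day 6 value was above 0. In the KO-labelled libraries it fell by 1.05 ± 0.13, 0.99 ± 0.13 and 0.66 ± 0.13 on days 1, 3 and 6.

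Smad7, which blocks Tgf-beta receptors and recruits ubiquitin ligases to them, fell in both genotypes on day 1. It had 53.2 and 48.3 CPM in WT on day 0, 24.1, 23.7 and 20.8 on day 1, 31.5, 30.1 and 33.8 on day 3, and 39.8, 37.3 and 33.4 on day 6. KO-labelled Smad7 values were 46.5, 52.5 and 54.1 CPM on day 0, 19.8, 15.5 and 19.2 on day 1, 23.1, 18.5 and 20.0 on day 3, and 34.2, 33.3 and 33.7 on day 6. The groups overlapped on days 0 and 6 and were separate on days 1 and 3. The difference of the KO-labelled libraries from WT was -0.33 ± 0.10 on day 1 (adjusted p = 0.0119) and -0.63 ± 0.10 on day 3 (adjusted p = 2.19e-05). The day 1 call was lost without KO-labelled replicate 2 (-0.25; adjusted p = 0.0524), with only the groups compared (-0.36; adjusted p = 0.0608) and with an offset for GC content (-0.08; adjusted p = 0.466), over a range of 0.00341 to 0.48; Smad6 and Smad7 transcripts have 60.6% and 59% GC, the 96.5th and 92.5th percentiles of tested genes. The offset also removes any genotype difference that follows GC content, so it cannot separate technical from real ones. Against day 0, Smad7 fell by 1.15, 0.68 and 0.46 in WT on days 1, 3 and 6 and by 1.49, 1.32 and 0.60 in the KO-labelled libraries, with standard errors of 0.10 to 0.11 and a highest adjusted p of 0.000667.

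**Figure D4:**
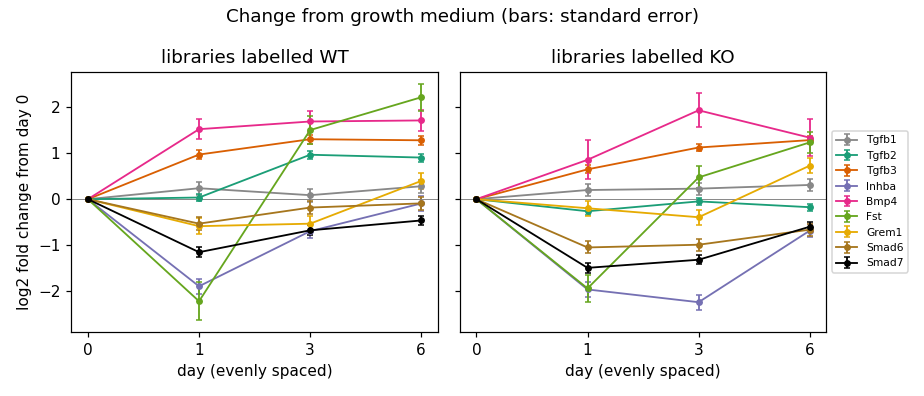
Log2 fold change from day 0 of each tested gene in WT (left) and in the KO-labelled libraries (right), with bars of 1 standard error. Inhba, Fst and Smad7 fell on day 1 in both panels; on day 3 Inhba stood at -0.70 in WT and -2.24 in the KO-labelled libraries.

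Most tested genes of these cells changed with differentiation, and the 9 genes are read against that background. In WT, 7, 7 and 6 of the 9 were called on days 1, 3 and 6 against day 0, where 54.7%, 58.2% and 63.6% of all tested genes were called. Among the KO-labelled libraries, 6, 6 and 9 were called, beside 52.3%, 57.6% and 70.0%. The test of a difference between the genotypes in these changes called 0 of 9 on day 1, beside 3.95% of all tested genes, with 4 under an unadjusted p of 0.05, 0 called by DESeq2 and 1 (Bmp4) by limma on log2(TPM + 1). It called 4 of 9 on day 3, beside 10.7%, and 2 of 9 on day 6, beside 13.0%; DESeq2 called 5 and 3, and 5 and 4 had an unadjusted p under 0.05. On day 3 the change in the KO-labelled libraries minus that in WT was -1.01 ± 0.11 for Tgfb2 (adjusted p = 1.7e-06), -1.54 ± 0.22 for Inhba (adjusted p = 4.89e-05), -0.81 ± 0.19 for Smad6 (adjusted p = 0.00678) and -0.64 ± 0.15 for Smad7 (adjusted p = 0.00554). On day 6 it was -1.08 ± 0.11 for Tgfb2 (adjusted p = 3.72e-07) and -0.57 ± 0.19 for Smad6 (adjusted p = 0.0483). The Smad7 call was lost without replicate 2 of WT on day 0 (adjusted p = 0.0566; range 0.000153 to 0.0566), and the day 6 Smad6 call in 9 of 22 alternatives.

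The other genes of these pathways were taken from a list of 78 symbols in 5 role classes, of which 77 were in the tables and 66 were tested. Between genotypes, 18 were called higher and 9 lower with the KO label on day 0, 19 and 21 on day 1, 16 and 27 on day 3, and 16 and 23 on day 6. Over all tested genes, the shares called higher were 7.36%, 22.9%, 24.0% and 22.0% on days 0, 1, 3 and 6, and those called lower 10.1%, 19.2%, 19.2% and 20.8%; the counts of the role classes are to be read against these shares. Their median log2 fold change was 0.09, 0.02, -0.11 and -0.12. Among the 8 other ligands tested, Bmp7 was lower on all 4 days, at 2.7 against 7.34 CPM on day 0 (-1.44 ± 0.20; adjusted p = 1.34e-05) and 3.86 against 12.1 CPM on day 6 (-1.65 ± 0.17; adjusted p = 4.77e-08). Inha, the inhibin alpha subunit, was also lower on all 4 days (-0.71, -1.53, -1.45 and -0.52; highest adjusted p = 0.04, on day 0). Gdf15, a stress-induced ligand, was higher by 0.96 on day 0 and 0.59 on day 6 but lower on day 3 (-0.54; adjusted p = 0.0318). Gdf11, the closest paralog of Mstn, was 0.34 higher on day 1 with overlapping groups (adjusted p = 0.0374) and lower on day 6 (-0.58; adjusted p = 0.00103).

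Among the 12 receptors, 4, 5, 2 and 3 were called higher and 1, 3, 4 and 2 lower on days 0, 1, 3 and 6, where 7.36% to 24.0% of all tested genes were called higher and 10.1% to 20.8% lower. Tgfbr1, the type I Tgf-beta receptor, was higher by 0.51 on day 0, 1.11 ± 0.12 on day 1, 1.13 ± 0.12 on day 3 and 1.48 ± 0.12 on day 6, when it had 33 CPM in the KO-labelled libraries and 11.8 CPM in WT (adjusted p = 4.8e-10). Bmpr1b, a type I Bmp receptor, was lower on all 4 days, on day 0 at 1.72 against 5.12 CPM (-1.57 ± 0.27; adjusted p = 0.000145). Acvr2b, a receptor of activins and myostatin, was higher by 0.75 on day 0 and 0.55 on day 1, and its later values (0.26 and -0.01) did not pass. Acvr1 was lower on days 1, 3 and 6 (-0.34, -0.47 and -0.48), Eng on day 1 (-0.66) and Bmpr2 on day 3 (-0.49), and the other days of these 3 genes did not pass.

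Of the 19 secreted antagonists and latency proteins, 4, 3, 5 and 3 were called higher and 4, 9, 9 and 9 lower on the 4 days, beside 7.36%, 22.9%, 24.0% and 22.0% of all tested genes called higher and 10.1%, 19.2%, 19.2% and 20.8% lower. Nog, encoding the Bmp antagonist noggin, was higher at 8.85 against 2.85 CPM on day 0 (1.64 ± 0.22; adjusted p = 6.64e-06) and 8.41 against 1.56 CPM on day 1 (2.42 ± 0.20; adjusted p = 2.68e-09). Chrd, encoding chordin, was higher on day 3 (1.36 ± 0.18) and on day 6 at 39.2 against 7.13 CPM (2.46 ± 0.17; adjusted p = 2.43e-11), but lower on day 1 (-0.76). Nog was also higher by 1.13 on day 3 and 1.07 on day 6. On days 3 and 6, Nog and Chrd were thus higher where Grem1, another antagonist of Bmp ligands, was lower. Ltbp2, a latent Tgf-beta binding protein, was lower on all 4 days (-1.22, -1.21, -1.01 and -0.74). Thbs1, whose product activates latent Tgf-beta, was lower on days 1, 3 and 6 (-0.63, -1.07 and -1.003), and its day 0 value of -0.36 did not pass.

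Among the 13 other Smads and intracellular regulators, 3, 7, 4 and 3 were called higher and 0, 1, 3 and 1 lower, against 7.36% to 24.0% of all tested genes higher and 10.1% to 20.8% lower. Smad3 was higher on all 4 days, by 0.54 ± 0.08, 0.45 ± 0.07, 0.33 ± 0.07 and 0.72 ± 0.07, and on day 6 had 171 against 103 CPM (adjusted p = 2.79e-08). Smad2 was higher by 0.48 on day 1 and 0.26 on day 3, and did not pass on days 0 and 6. Tgif1, a Smad corepressor, was higher on all 4 days (0.29, 0.26, 0.53 and 0.58), with overlapping groups on day 1. Pmepa1, an inhibitor of Smad2 and Smad3 activation, was lower on day 3 (-0.56) and did not pass on the other days. Smad9 was called lower on days 1, 3 and 6, at 1.86 against 4.12, 0.463 against 2.75 and 0.752 against 3.94 CPM. Its KO-labelled libraries held only 6 to 15 counts on day 3. Smad1 was called higher on days 1, 3 and 6, at 119 against 103, 119 against 94 and 120 against 93 CPM. Of the 14 response genes, 6, 3, 5 and 5 were called higher and 2, 4, 7 and 7 lower, against the same shares of all tested genes (22.9% higher and 19.2% lower on day 1). Id1, an inhibitor of helix-loop-helix factors that Bmp induces, was higher on day 3 at 12.7 against 4.14 CPM (1.62 ± 0.16; adjusted p = 2.91e-08) and on day 6 at 20.6 against 4.94 CPM (2.06 ± 0.16; adjusted p = 1.66e-10), and Id3 was higher by 1.31 and 1.50 on the same days. Neither passed on days 0 and 1. The other genes of the list that Bmp ligands can induce did not move alike: Msx2 was lower on days 1, 3 and 6 (-0.67, -0.76 and -0.97), Id2 was higher on day 0 (0.48) and lower on day 6 (-0.29), Msx1 did not pass on any day, and Hey1 (0.53 to 1.44) and Atoh8 (0.36 to 0.93, its groups overlapping on day 1) were higher on all 4. Ctgf, a matricellular Tgf-beta target, was higher at 314 against 52.8 CPM on day 0 (2.57 ± 0.18; adjusted p = 1.62e-10) and by 2.34, 0.37 and 0.52 on days 1, 3 and 6, with overlapping groups on day 3. Col1a1, a collagen gene induced by Tgf-beta, was lower on all 4 days (-4.48, -4.20, -3.84 and -2.80).

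**Figure D5:**
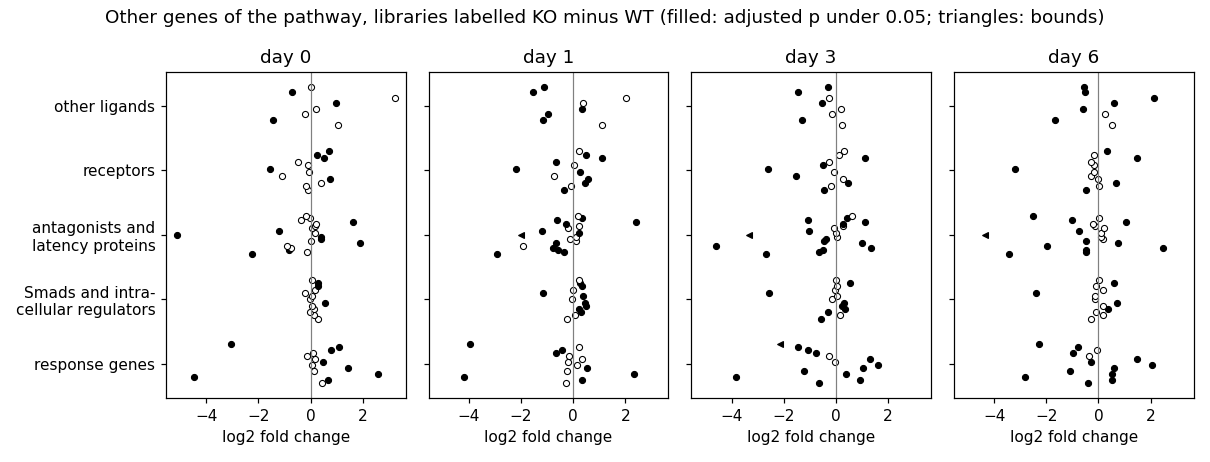
Log2 fold change of the KO-labelled libraries against WT for the 66 other tested pathway genes by role class and day; filled points had an adjusted p under 0.05. Filled points lie on both sides of 0 in every class and day except the other ligands on day 3 and the Smads on day 0; triangles are lower bounds on the size of the difference where every KO-labelled library had 0 counts.

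In WT, 23, 31 and 35 of the 66 pathway genes were called higher and 20, 14 and 15 lower on days 1, 3 and 6 against day 0. Of all tested genes, 27.1%, 29.2% and 32.6% were called higher and 27.6%, 29.0% and 31.1% lower. On day 6, Inha was higher by 2.34, Acvrl1, a type I receptor for Bmp9, by 3.82, Dcn, whose product decorin binds Tgf-beta, by 6.52, Pmepa1 by 1.07 and Col1a1 by 3.99. Id3 fell from 201 to 3.76 CPM (-5.74 ± 0.16; adjusted p = 5.23e-18). Falls were also called for Gdf15 (-0.56), Tgfbr1 (-0.92), Ltbp1 (-0.87) and Smad9 (-1.82). Thus Tgfbr1 fell with time in WT and was higher in the KO-labelled libraries on all 4 days, while the Tgfb3 ligand rose with time in both genotypes.

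For each tested gene, the 2 genes with the most similar pattern were found by Pearson's r over the 8 group means of log2 CPM, among 10897 candidates. For Bmp4 these were Cd34 (r = 0.995) and Osr1 (r = 0.993), and for Grem1 Galm (0.968) and Gch1 (0.966). Tgfb1 was closest to Uqcc3 (0.976) and Xdh (0.972), Tgfb2 to Gadd45g (0.987) and Trabd2b (0.969), and Tgfb3 to Zfp438 (0.997) and Adamts2 (0.993). Inhba was closest to Kcnh1 (0.973) and B3galnt2 (0.958), Fst to Sbds (0.953) and Amotl2 (0.941), Smad6 to Serpinf1 (0.99) and Stx1a (0.98), and Smad7 to Nxph4 (0.976) and Tnk2 (0.974). With 8 points that share libraries and so many candidates, these values only describe likeness.

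In the RefSeq annotation of GRCm38.p6, Tgfb1 lies at chr7:25687002-25705077, Tgfb2 at chr1:186622787-186709697, Tgfb3 at chr12:86056743-86079041, Inhba at chr13:16004256-16031609, Bmp4 at chr14:46383525-46390669, Mstn at chr1:53061640-53068079, Fst at chr13:114452262-114458989, Grem1 at chr2:113748675-113758648, Smad6 at chr9:63953076-64022085 and Smad7 at chr18:75367365-75395935. Tgfb2, Inhba, Bmp4, Fst and Smad7 overlap other RefSeq genes there. Whether the counting used strand is not given in the sources used here, so reads from overlapping or antisense genes cannot be told apart from theirs.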

How the data were processed

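RNA sequencing of 23 C2C12 libraries in 8 groups was used, 9 of them labelled WT in differentiation medium, 2 labelled WT in growth medium and 12 labelled KO. Poly(A) RNA was selected, per the labels' protocols. The authors deposited estimated counts per gene symbol, as whole numbers (rounding them changed 0 values), and TPM for the same genes, scaled by the authors to 1000000 per library. Bowtie2, RSEM and the mm10 build are named in the submitters' processing notes; versions, annotation and use of strand are not given in the sources used here.

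Groups came from the labels. Estimated counts were tested with the quasi-likelihood test of edgeR 4.0.16 in R 4.3.3: TMM scaling, filterByExpr with a minimum count of 10 and a minimum total count of 15 (14187 of 32793 genes), 1 group-means model over all libraries, and Benjamini-Hochberg adjustment over all tested genes within each of 13 comparisons (threshold 0.05). These were KO against WT on 4 days, later days against day 0 in each genotype, and the difference between genotypes in those changes. Errors beside log2 fold changes are approximate standard errors, taken as the absolute log2 fold change divided by the square root of the quasi-likelihood F statistic. On simulated counts for KO against WT on day 3, with 200 of 14187 genes changed, 88% were recovered and 3.83% of calls were false.

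The 10 genes, the list of 78 pathway genes and the markers were chosen with earlier results of these data known. Most pathway genes are named by rule: in each role class, the called genes with the highest and the lowest log2 fold change among those with a mean of at least 5 CPM in 1 group. They are named for KO against WT on each day and for WT on day 6. Smad1, Id2, Msx1, Msx2, Hey1 and Atoh8, and the genotype values of Smad9 and Id3, are given outside this rule. One gene of the list is counted but not reported here by name. RefSeq sequences and positions are on GRCm38.p6, the assembly family of mm10. Comparisons within a day share no libraries with other days, but all time comparisons of a genotype share its day 0 libraries.

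Alternatives were RLE scaling, library size only, other filters (none, or a mean count of 50 or more), DESeq2 1.42.0, limma 3.58.1 on log2(TPM + 1) and log2(TPM + 0.1), a replicate block, only the groups compared, and leaving out each library. An offset for GC content (known for 93.5% of tested genes), alone or with the replicate block, was chosen after seeing the data. It was fitted, as a smooth curve on GC content, to the deviation of each library from the mean over all libraries. It therefore also removes genotype or day differences that follow GC content, and cannot separate technical from real ones. Same-numbered replicates of the groups compared had correlated deviations of -0.24 to 0.116, so the numbers did not pair the libraries.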

Additional observations from a re-analysis of the deposited data

Results flagged for a closer look

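For 4 genes, the change from day 0 differed between the genotypes by a test of that difference (edgeR quasi-likelihood test, Benjamini-Hochberg adjusted over all tested genes). Values are the log2 change in the KO-labelled libraries minus that in WT. For Tgfb2, the ligand that was higher in the KO-labelled libraries at day 0, the day 3 value was -1.013 (SE 0.113; adjusted p = 1.7e-06). Its day 6 value was -1.079 (SE 0.113; adjusted p = 3.72e-07). For Inhba, the activin subunit, it was -1.542 on day 3 (SE 0.224; adjusted p = 4.89e-05). For Smad7 it was -0.639 on day 3 (SE 0.148; adjusted p = 0.00554), a call lost without replicate 2 of WT on day 0 (adjusted p = 0.0566; range over its alternatives 0.000153 to 0.0566). For Smad6 the day 3 value was -0.807 (SE 0.192; adjusted p = 0.00678). By day 6 it was -0.571 (SE 0.189; adjusted p = 0.0483), a call lost in 9 of 22 alternatives, the replicate block among them (adjusted p = 0.0686; range 0.00228 to 0.154). All 6 values share the 2 WT libraries of day 0.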

How the results depend on the processing

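The number of the 9 genes called kept within 1.5 times in 221 of 232 alternatives. It ran from 3 to 4, 5 to 8, 6 to 6 and 4 to 5 for KO against WT on days 0, 1, 3 and 6. The 11 exceptions were all tests of a difference between genotypes in the change from day 0. On day 1 that count of 0 became 1 with limma on log2(TPM + 1) and ran from 0 to 1 when 1 library was left out. On day 6 the count of 2 became 1 with the replicate block, 4 with only the groups compared and 4 with the GC offset, and ran from 1 to 3 when 1 library was left out. The replicate block moved no other count. With it, Smad6 on day 6 had a difference of -0.575 (adjusted p = 0.0686).

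Of 1499 alternative values for 86 effects of single genes, 1376 kept their direction and side of the threshold, 58 no longer passed, 49 newly passed and 16 changed sign. The sign changes were as follows, with the cause not tested. Tgfb1 against day 0 became -0.056 with the GC offset and -0.0562 with the GC offset and replicate block on day 3 in the KO-labelled libraries. It became -0.130 with either offset on day 6 there, and -0.0022 on day 6 in WT with the offset and block. Smad6 in WT on day 6 became 0.0725 and 0.0798 with limma at pseudocounts of 1 and 0.1, and ran from -0.222 to 0.0445 without 1 library. Tgfb2 in the KO-labelled libraries on day 3 became 0.0198 with library size only and 0.0319 and 0.0334 with limma, and ran from -0.123 to 0.0012 without 1 library. The day 3 difference in change of Bmp4, 0.24, became -0.934 (adjusted p = 0.015; range over its alternatives 0.015 to 1) and -0.247 with limma, and ran from -0.214 to 0.511 without 1 library. Without KO-labelled replicate 2 of day 1, 7 genes were called for KO against WT on day 1 and 7 for day 1 against day 0, where 7 and 6 were called with it. Depth limits Mstn, which could not be tested, and the values of Bmp4 and Fst at a few counts per library.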
